A study of Mus musculus with 6 samples.

Results

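The 2 RNA-seq libraries of satellite cells from Jmjd3 knockout (KO) mice were compared with the 2 libraries of Tdt control mice, so 4 of the 6 libraries in the series form the comparison; the other 2 come from Utx KO mice. All mice were adult, of strain C57BL/6, and had received cardiotoxin, a snake venom peptide that lyses muscle fibres, in the tibialis anterior and gastrocnemius muscles. Satellite cells were sorted from these muscles by flow cytometry 30 h after the injury, and total RNA was sequenced. The series title calls the knockouts specific to satellite cells (scKO) and the controls wild-type. The driver of the deletion, the deleted exons, what Tdt stands for and the number of animals behind each library are not given in the sources used here. Every library therefore comes from injured muscle, and no uninjured group was compared. Of 54123 annotated genes, 17084 had enough reads to be tested.

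JMJD3, encoded by Kdm6b, removes methyl groups from lysine 27 of histone H3, a mark that the Polycomb repressive complex lays down over silent genes. UTX, encoded by Kdm6a, removes the same mark. Satellite cells are the stem cells of skeletal muscle: they lie between the fibre and its basement membrane, leave quiescence after injury while the tissue is full of inflammatory cells, proliferate as myoblasts and later fuse into new fibres. Loss of a demethylase removes an activity that can open silenced genes, so the comparison asks which transcripts differ in activated satellite cells when Kdm6b is targeted.

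Levels are given as CPM (reads of a gene relative to the reads of its library, scaled between libraries) for each library in the order replicate 1 and replicate 2, with Jmjd3 KO before Tdt control where pairs are set against each other, and, where genes are set against each other, as TPM, which corrects for transcript length. Fold changes are log2 values of Jmjd3 KO over Tdt control ± standard error, and adjusted p-values are those of edgeR's quasi-likelihood test with Benjamini-Hochberg adjustment over the 17084 genes. A gene is called when its adjusted p is below 0.05. On simulated data this test made more false calls than that threshold allows for. Estimated reads per library ran from 53750675 to 77675388. The labels do not state whether the 2 libraries of a group are from different animals, and p-values thus measure the spread between these libraries. The cells had the transcripts of their label: Pax7, the defining transcription factor of satellite cells, was at 148 and 145 CPM in the Jmjd3 KO libraries and 139 and 136 in controls, and Myf5 was at 59.2 and 58.0 against 60.3 and 62.1. Transcripts of other cells were also present. The summed level of 13 neutrophil markers was 338 and 261 CPM in the Jmjd3 KO libraries, 169 and 185 in controls and 223 and 259.6 in the Utx KO libraries, and that of 12 markers of mature fibres was 6957 and 7230 CPM in the Jmjd3 KO libraries, 5308 and 5611 in controls and 4898 and 5761 in the Utx KO libraries; each sum is higher in both Jmjd3 KO libraries than in both controls. The same held for macrophage and monocyte markers (312 and 286.8 CPM against 210.1 and 256.2) and fibro-adipogenic progenitor markers (1467 and 1435 against 1261 and 1262). It also held for the 10 satellite cell markers (4224 and 4313 against 3966 and 4013), of which Des was called higher and Myod1 lower. Sums for endothelial, mural and Schwann cells, tenocytes and red blood cells overlapped between the groups. In such bulk samples a change in the number of cells of a type and a change in RNA per cell cannot be told apart.

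Kdm6b, the targeted gene (chromosome 11), fell. Its main transcript, Kdm6b-201, had 1021 and 1048 estimated reads in Jmjd3 KO and 2232 and 1468 in Tdt control. The 2 groups did not overlap, and control replicate 1 stood above control replicate 2. The gene had 15.9 and 16.5 CPM in the Jmjd3 KO libraries and 29.9 and 22.7 in Tdt control (log2 fold change -0.70 ± 0.12, adjusted p = 0.0243), and it was 22.97 and 22.2 CPM in Utx KO. The short non-coding Kdm6b-202 held 18.8% and 14.7% of the gene's TPM in Jmjd3 KO against 14.1% and 16.3% in control, so the groups overlapped in that share. The files do not resolve exons, so whether the reads that remain in Jmjd3 KO span the deleted part was not tested. Kdm6b lost its call without either Jmjd3 KO library (lowest adjusted p = 0.123, highest 0.167). Kdm6a was at 30.3 and 32.4 CPM in the Jmjd3 KO libraries, 32.9 and 33.96 in controls and 7.68 and 7.38 in the Utx KO libraries, and it missed the threshold in Jmjd3 KO (log2 fold change -0.09 ± 0.06, adjusted p = 0.412).

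Across the 17084 genes, 513 were called (3.0%), of which 337 rose (1.97%) and 176 fell (1.03%) in Jmjd3 KO. Most changes were small: the median fold size was 1.45 for genes that rose and 1.33 for genes that fell, and the median log2 fold change of all tested genes was -0.005. At least 2-fold changes were found for 59 genes that rose and 33 that fell. All 513 had CPM values that did not overlap between the groups, as did 8844 of the 17084 tested genes, so separation of the libraries alone was common. Before adjustment, 3410 genes had an unadjusted p under 0.05. The authors' deposited table called 876 genes (530 higher and 346 lower), and 445 genes were in both sets, which is 86.7% of the calls made here and 50.8% of theirs. Fewer genes were called whichever single library was left out. Without a Jmjd3 KO or Tdt control library its group keeps 1 library, and the test has less power. A call lost in such a fit thus does not show that the library left out carried the change. In all, 86 genes were called whichever of the 6 libraries was left out, 57 higher and 29 lower, and these are called robust below. Of them 66 were also called under each of the other planned settings run over all genes, and the other 20 lay under the filter of 5 CPM in 2 libraries, where they were not tested; 11 of the 86 had no adjusted p by DESeq2, and 1 lost its call with transcript length offsets.

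**Figure D1:**
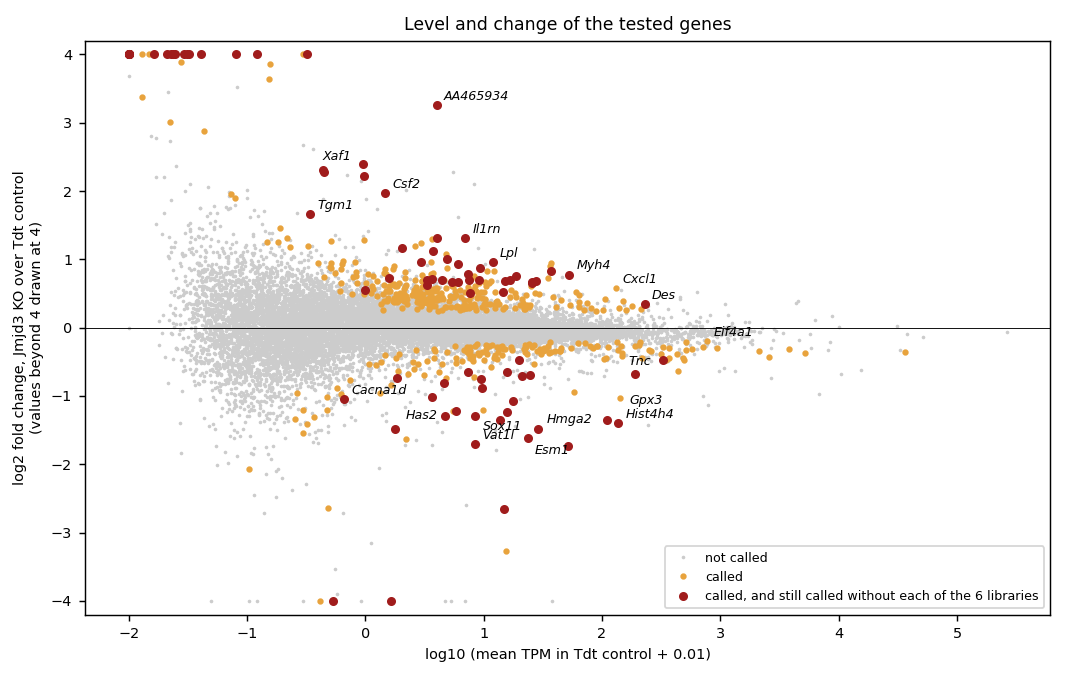
Each point is a tested gene, with its mean control level on the x axis (log10 of TPM + 0.01) and its log2 fold change of Jmjd3 KO over Tdt control on the y axis, drawn at 4 where it is larger. Grey points were not called, orange points were, and dark red points are the 86 genes called whichever library was left out. Genes called at high levels lie close to the zero line, and those with large folds lie to the left.

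The direction of change differed between levels. Of 6011 genes at 1 to 10 TPM in control, 196 rose and 58 fell, with a median log2 fold change of 0.03 over all of them. Of 694 genes at 100 TPM and over, 9 rose and 39 fell, and their median was -0.08. The 4527 genes between these bands had 64 that rose and 63 that fell. Among called protein-coding genes, those that rose summed to 3760 TPM in control and 5494 in Jmjd3 KO, and those that fell to 9209 and 7803. That is a gain of 1735 TPM over 301 genes beside a loss of 1405 TPM over 146 genes. TPM was not scaled between libraries. All tested protein-coding genes summed to 382337 and 373045 TPM in the Jmjd3 KO libraries and 353832 and 372711 in Tdt control. For genes at 10 TPM and over in control, the median ratio of Jmjd3 KO to control was 1.039. Which of the gain and the loss is larger thus depends on the scaling.

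The called protein-coding genes that gained most transcripts were, in order of TPM gained, Cxcl1, Des, Ifitm3, Nfkbia, Atp2a1, Myh4, Hist1h2ae, Jund, S100a9 and Srgn. Cxcl1, a chemokine that attracts neutrophils, went from a mean of 130.1 to 218 TPM. Des encodes desmin, the intermediate filament of muscle, which activated satellite cells already make, and went from 229.8 to 309 TPM. Its level was 1377 and 1425 CPM in the Jmjd3 KO libraries and 1091 and 1112 in Tdt control (log2 fold change 0.35 ± 0.04, adjusted p = 0.00445), and it is one of the robust calls. Ifitm3, an interferon-induced membrane protein of a family with near-identical copies, went from 179 to 239 TPM (189 and 182 CPM against 148 and 149). In Utx KO it was lower than in control, at 109.5 and 112 CPM. Srgn encodes serglycin, the proteoglycan of granules in blood cells, and had 62.8 and 46.5 CPM against 27.9 and 30.9 (log2 fold change 0.90 ± 0.13, adjusted p = 0.0165). Ifitm3 lost its call without each Jmjd3 KO and each Tdt control library (lowest adjusted p = 0.0709, highest 0.156), and Cxcl1 lost it without Jmjd3 KO replicate 1 or Tdt control replicate 1 (lowest adjusted p = 0.0647, highest 0.0886). Srgn lost its call without either Tdt control library (lowest adjusted p = 0.0585, highest 0.0933).

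The genes that lost most transcripts were Hist2h2bb, Hist1h2bj, Hist1h2bm, Hist4h4, Hist1h1a, Gpx3, Tnc, Taf1d, Nme2 and Eif4a1. The 5 histone genes are described further on. Gpx3, a secreted selenium enzyme that reduces peroxides, went from 143 to 73.8 TPM, with 184 and 168 CPM in the Jmjd3 KO libraries and 309.7 and 411 in Tdt control (log2 fold change -1.03 ± 0.13, adjusted p = 0.00824); the highest Jmjd3 KO library was below the lowest control. Taf1d belongs to the factor that recruits RNA polymerase I, and had 404 and 373 CPM against 549.7 and 466 (log2 fold change -0.39 ± 0.08, adjusted p = 0.0464); the gene hosts small nucleolar RNAs in its introns. Nme2 is a nucleoside diphosphate kinase whose reads overlap those of a near copy, and Eif4a1 is the helicase of translation initiation; both lie on chromosome 11. Nme2 had 404 and 364 CPM against 462 and 477, and Eif4a1 had 1804 and 1772 CPM against 2076 and 2027, a 1.15-fold decrease. Gpx3 lost its call without either Jmjd3 KO library (lowest adjusted p = 0.0549, highest 0.0625), and Eif4a1 lost it without each Jmjd3 KO and each Tdt control library (lowest adjusted p = 0.0732, highest 0.132). Taf1d lost its call without either Jmjd3 KO library, Tdt control replicate 1 or either Utx KO library (lowest adjusted p = 0.0704, highest 0.238), and Nme2 lost it without Jmjd3 KO replicate 2, either Tdt control library or either Utx KO library (lowest adjusted p = 0.0667, highest 0.190). Which genes lead this ranking depends on length correction: with CPM in place of TPM, 10 of the 20 genes are shared.

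Many genes of interleukin-1 and tumour necrosis factor (TNF) signalling rose, in a list chosen, like those below, with earlier results of these data known. Both cytokines release NF-kB from its inhibitors, and NF-kB then induces the inhibitors and the chemokines again. Of this list, 13 of 35 tested members were higher and 0 lower, with 3 lower at an unadjusted p under 0.05 and 1 by DESeq2, with a median log2 fold change of 0.26 against -0.005 over all genes. The shares to set beside the count of each list are those of all tested genes, 1.97% higher and 1.03% lower. The promoters of 5 called genes are shown because they hold an NF-kB motif (GGGA, any base, TT, any base, CC) within the 120 bases before the RefSeq start (GRCm38.p6); capitals mark the match. Nfkbia encodes the inhibitor I-kappa-B alpha (chr12:55492648-55492767, minus strand), Tnip1 a ubiquitin-binding inhibitor (chr11:54962941-54963060, minus), and Cxcl1 (chr5:90891125-90891244, plus), Cxcl2 (chr5:90903779-90903898, plus) and Cxcl10 (chr5:92348890-92349009, minus) chemokines.
Nfkbia: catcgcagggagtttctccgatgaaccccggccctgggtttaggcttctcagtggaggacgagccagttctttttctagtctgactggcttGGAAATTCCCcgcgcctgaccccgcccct
Tnip1: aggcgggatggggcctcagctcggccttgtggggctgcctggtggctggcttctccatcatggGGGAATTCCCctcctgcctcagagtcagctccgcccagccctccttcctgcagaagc
Cxcl1: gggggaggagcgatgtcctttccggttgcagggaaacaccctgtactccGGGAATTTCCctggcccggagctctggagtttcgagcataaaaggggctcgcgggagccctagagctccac
Cxcl2: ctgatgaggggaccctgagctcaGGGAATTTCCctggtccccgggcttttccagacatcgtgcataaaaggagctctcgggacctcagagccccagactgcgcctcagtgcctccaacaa
Cxcl10: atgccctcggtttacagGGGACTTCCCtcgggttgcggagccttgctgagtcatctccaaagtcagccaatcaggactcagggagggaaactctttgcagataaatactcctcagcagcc

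Over the window from 250 bases before to 50 after the start, this motif, on either strand, was in 9 of 226 promoters of genes that rose (3.98%), in 0 of 120 of genes that fell and in 144 of 11533 of all tested genes (1.25%). The 9 were Tnip1, Nfkbia, Ptx3, Cxcl1, Uaca, Cxcl10, Neurl3, Bcl3 and Cxcl2. Other motifs were counted too, given here for genes that rose, genes that fell and all tested genes. The TATA box was in 12.8%, 12.5% and 7.82%, and the E2F motif in 1.33%, 5.83% and 2.43%. The AP-1 motif was in 6.64%, 5% and 5.05%, the interferon response motif in 4.87%, 5% and 3.03%, and the E-box in 7.96%, 11.7% and 10.1%. Median CpG observed over expected was 0.632, 0.713 and 0.752. The promoter table matched only 67.5% of the tested genes, under the 80% required for a check of such a property over a gene set, so that check is void and the shares only describe the genes matched. The match is of letters, and binding was not measured.

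Among the inhibitors, Nfkbia had 406 and 402 CPM in the Jmjd3 KO libraries and 318 and 301 in Tdt control (log2 fold change 0.38 ± 0.06, adjusted p = 0.0249). Bcl3, a nuclear partner of NF-kB p50, had 24.3 and 27.5 CPM against 15.4 and 14.6 (log2 fold change 0.78 ± 0.07, adjusted p = 0.00327) and is a robust call. Nfkbie and Tnfaip3, which also restrain the pathway, had 30.9 and 31 CPM against 20.98 and 19.7 for Nfkbie and 133 and 128 CPM against 101 and 89.9 for Tnfaip3. In each of these the Jmjd3 KO pair lay above the control pair. Il1rn, the antagonist that occupies the interleukin-1 receptor, had 42.2 and 30.7 CPM against 15.6 and 13.8, a 2.48-fold rise (log2 fold change 1.31 ± 0.15, adjusted p = 0.00693), and is robust. The decoy receptor Il1r2 rose with 52.1 and 37.6 CPM against 23.2 and 27.1, and so did the ligand Il1a with 6.92 and 7.15 CPM against 3.41 and 4.39. Il1r2 is also a neutrophil marker of the list above, and the part of neutrophil transcripts in this group was not tested. Irak2, Tnfaip2, Birc3, Tnfrsf1b, Tnfaip6 and Tnip1 complete the 13. The number of called members ran from 3 (without Jmjd3 KO replicate 1, Tdt control replicate 1 or Tdt control replicate 2) to 13 with 1 library left out. Nfkbia, Nfkbie, Tnfaip3, Irak2, Tnfaip6 and Tnip1 lost their calls without each Jmjd3 KO and each Tdt control library (lowest adjusted p = 0.0512, highest 0.198), and Il1r2 and Tnfrsf1b lost theirs without Jmjd3 KO replicate 1 or either Tdt control library (lowest adjusted p = 0.0738, highest 0.132). Il1a lost its call without either Jmjd3 KO library or Tdt control replicate 1 (lowest adjusted p = 0.0834, highest 0.133), and Birc3 lost it without either Jmjd3 KO library or Tdt control replicate 2 (lowest adjusted p = 0.0651, highest 0.116). Tnfaip2 lost its call without either Tdt control library (lowest adjusted p = 0.0770, highest 0.0839).

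Of the chemokines, 8 of 26 tested members were higher and 1 lower (median 0.39). Ccl2, which draws monocytes, had 30.5 and 30.9 CPM in the Jmjd3 KO libraries and 18.6 and 19.9 in Tdt control (log2 fold change 0.67 ± 0.07, adjusted p = 0.00445) and is a robust call. The ligands of the neutrophil receptor CXCR2 rose: Cxcl1 had 162 and 154 CPM against 104 and 108 (log2 fold change 0.58 ± 0.07, adjusted p = 0.00942), Cxcl2 had 93.7 and 85.7 CPM against 59.6 and 65.9 and Cxcl5 had 12.9 and 12.6 CPM against 8.04 and 8.09. Cxcl10, an interferon-induced attractant of T cells, and Cxcl16, a membrane-bound chemokine, had 3.03 and 2.97 CPM against 1.76 and 1.72 for Cxcl10 and 3.46 and 3.62 CPM against 2.11 and 2.11 for Cxcl16. Ccl3 and Ccl4, which are near copies of each other, had 6.96 and 5.404 CPM against 2.46 and 2.57 for Ccl3 and 5.88 and 4.88 CPM against 2.55 and 2.54 for Ccl4. The member that fell was Cxcl12, the homing signal of the stem cell niche, with 130.3 and 130.3 CPM against 154 and 174 (log2 fold change -0.33 ± 0.07, adjusted p = 0.0462). Cxcl1 was called higher in Utx KO too, at 144 and 164 CPM, and the direct difference between the knockouts was 0.04 ± 0.07, adjusted p = 0.792; across that contrast 8.02% of genes were called. Called chemokines ran from 1 (without Jmjd3 KO replicate 1) to 8 with 1 library left out. Cxcl10 and Cxcl16 lost their calls without each Jmjd3 KO and each Tdt control library (lowest adjusted p = 0.110, highest 0.186), and Cxcl1 and Cxcl2 lost theirs without Jmjd3 KO replicate 1 or Tdt control replicate 1 (lowest adjusted p = 0.0647, highest 0.142). Ccl3 and Ccl4 lost their calls without Jmjd3 KO replicate 1 or either Tdt control library (lowest adjusted p = 0.0638, highest 0.124), and Cxcl5 lost it without Jmjd3 KO replicate 1 (adjusted p = 0.0570). Cxcl12 lost its call without either Jmjd3 KO library, Tdt control replicate 2 or either Utx KO library (lowest adjusted p = 0.0706, highest 0.221).

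Of the neutrophil markers, 6 of 13 tested members were higher and 0 lower, with 1 lower at an unadjusted p under 0.05 and 0 by DESeq2 (median 0.71), and Ly6g and Camp, 2 of the 15 listed, did not pass the filter on low counts. Hdc, the enzyme that makes histamine, had 32.9 and 27.5 CPM in the Jmjd3 KO libraries and 14.9 and 12.8 in Tdt control (log2 fold change 1.12 ± 0.11, adjusted p = 0.00368) and is robust, as is Mxd1, a partner of MAX that opposes MYC, with 36.1 and 31.7 CPM against 20.99 and 20.5. S100a9, a calcium-binding protein abundant in neutrophils, had 70.3 and 54.3 CPM against 31.01 and 33.6, and Csf3r, the receptor of granulocyte colony-stimulating factor, had 24.6 and 19.6 CPM against 13.5 and 14.1. Of the macrophage and monocyte markers, 2 of 15 tested members were higher and 0 lower, with 0 lower at an unadjusted p under 0.05 and 0 by DESeq2 (median 0.11); these were Cd14, with 132 and 106 CPM against 68.9 and 74.9, and Tyrobp, with 19.5 and 16.3 CPM against 11.5 and 12.8. Other members lay on both sides of 0, such as the macrophage marker Adgre1 with 4.58 and 5.28 CPM against 4.87 and 6.15, and so did the neutrophil list, where Ngp had 0.0914 and 0.0619 CPM against 0.289 and 0.531 and missed the threshold (adjusted p = 0.0526). In a list of leukocyte genes written after the values were seen, 19 of 41 tested members were higher and 0 lower, with 0 lower at an unadjusted p under 0.05 and 0 by DESeq2. It holds Csf2rb, the shared receptor chain for interleukin-3, interleukin-5 and GM-CSF, a robust call with 16.9 and 15.4 CPM against 9.63 and 9.82, and Slpi, an inhibitor of neutrophil elastase, with 7.36 and 6.597 CPM against 3.29 and 3.92. With 1 library left out, the called neutrophil markers ran from 2 (without Jmjd3 KO replicate 1, Tdt control replicate 1 or Tdt control replicate 2) to 7 and the called genes of the 41 ran from 1 (without Jmjd3 KO replicate 1 or Tdt control replicate 1) to 14. Whether these transcripts come from leukocytes in the sort was not tested. S100a9, Csf3r and Cd14 lost their calls without Jmjd3 KO replicate 1 or either Tdt control library (lowest adjusted p = 0.0673, highest 0.117), and Tyrobp lost it without each of the 6 libraries in turn (lowest adjusted p = 0.0530, highest 0.242). Slpi lost its call without Jmjd3 KO replicate 1 or Tdt control replicate 1 (lowest adjusted p = 0.0647, highest 0.103).

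The cytokine Csf2 (GM-CSF), which acts on the receptor that Csf2rb belongs to, rose with it. It had 5.93 and 5.42 CPM in the Jmjd3 KO libraries and 1.71 and 1.17 in Tdt control, a 3.92-fold rise (log2 fold change 1.97 ± 0.19, adjusted p = 0.00340), and is a robust call. In Utx KO it was at 0.986 and 1.105 CPM, so every library but those of Jmjd3 KO lay below 2 CPM, and the difference between the knockouts was 2.44 ± 0.20, adjusted p = 0.00113. Csf2 lies on chromosome 11, as do Ccl2, Ccl3, Ccl4 and Cxcl16.

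Of complement and pattern recognition genes, 5 of 32 tested members were higher and 0 lower, with 0 lower at an unadjusted p under 0.05 and 0 by DESeq2 (median 0.23). Ptx3, a secreted pentraxin, had 11.6 and 11.9 CPM in the Jmjd3 KO libraries and 7.09 and 7.29 in Tdt control (log2 fold change 0.70 ± 0.08, adjusted p = 0.00469) and is robust, and C3, the central complement component, had 31.96 and 32.1 CPM against 22.5 and 20.1. The remaining 3, Cd14, Clec4d and Clec4e, are receptors of myeloid cells. Acod1, the enzyme that makes itaconate in activated myeloid cells, had 75.8 and 56.7 CPM against 39.4 and 35.1. C3 lost its call without each Jmjd3 KO and each Tdt control library (lowest adjusted p = 0.0568, highest 0.134), and Acod1 lost it without either Tdt control library (lowest adjusted p = 0.0699, highest 0.0866).

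Both genes of the transporter that loads peptides for antigen presentation rose. Of the MHC class I list, 3 of 23 tested members were higher and 0 lower, with 0 lower at an unadjusted p under 0.05 and 0 by DESeq2 (median 0.18): Tap2, a robust call with 35.02 and 34.5 CPM in the Jmjd3 KO libraries and 21.8 and 21.8 in Tdt control (log2 fold change 0.67 ± 0.05, adjusted p = 8.63e-04), its partner Tap1 with 15.8 and 15.7 CPM against 11.5 and 9.94, and the immunoproteasome subunit Psmb8 with 8.09 and 7.88 CPM against 6.001 and 5.12. None of the 3 was called in Utx KO; the differences between the knockouts were 0.68 ± 0.05, adjusted p = 4.60e-04 for Tap2, 0.71 ± 0.09, adjusted p = 0.00480 for Tap1 and 0.88 ± 0.11, adjusted p = 0.00464 for Psmb8. Of the interferon response list, 2 of 39 tested members were higher and 0 lower, with 1 lower at an unadjusted p under 0.05 and 1 by DESeq2 (median 0.33). Those that rose were Xaf1, an interferon-induced antagonist of inhibitors of apoptosis on chromosome 11, with 7.75 and 7.36 CPM against 1.53 and 1.34 (log2 fold change 2.40 ± 0.14, adjusted p = 4.47e-04), a robust call, and Ddx58, the RNA sensor RIG-I, with 8.805 and 9.11 CPM against 6.42 and 5.72. The Schlafen genes lie side by side on chromosome 11 and share sequence, so their reads may be split: Slfn9 fell, with 45.4 and 45.1 CPM against 99.2 and 114, while Slfn1 rose, with 2.48 and 1.98 CPM against 1.09 and 1.23, and so did the pseudogene Slfn10-ps, with 1.51 and 1.21 CPM against 0.289 and 0.4402. Ddx58 and Slfn10-ps lost their calls without each Jmjd3 KO and each Tdt control library (lowest adjusted p = 0.0530, highest 0.185), and Psmb8 and Slfn1 lost theirs without each of the 6 libraries in turn (lowest adjusted p = 0.0671, highest 0.252). Tap1 lost its call without either Jmjd3 KO library or Tdt control replicate 2 (lowest adjusted p = 0.0667, highest 0.139).

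Several genes of embryonic and fetal tissue fell, in a list whose members were chosen with earlier results of these data known. Of the oncofetal and let-7 target list, 0 of 25 tested members were higher and 6 lower, with 1 higher at an unadjusted p under 0.05 and 0 by DESeq2 (median -0.18). Sox11, a SoxC transcription factor of embryonic progenitors, had 24.7 and 25.97 CPM in the Jmjd3 KO libraries and 61.2 and 62.6 in Tdt control, a 2.44-fold decrease (log2 fold change -1.29 ± 0.05, adjusted p = 6.67e-05) with the smallest p of any protein-coding gene. Hmga2, a chromatin protein of growing embryonic tissues, had 32.99 and 38.4 CPM against 96.2 and 103, a 2.79-fold decrease (log2 fold change -1.48 ± 0.10, adjusted p = 6.65e-04); nearly all its reads were on Hmga2-201, with 2126 and 2456 against 7130 and 6603. Dlk1, an imprinted membrane protein of fetal muscle, had 4.45 and 4.97 CPM against 10.9 and 11.1 (log2 fold change -1.22 ± 0.09, adjusted p = 9.16e-04), and Ccnd2, cyclin D2, had 8.77 and 8.46 CPM against 14.8 and 13.97 (log2 fold change -0.74 ± 0.07, adjusted p = 0.00374). These 4 are robust calls, and none of them was called in Utx KO against control, where they had 60.1 and 63.1, 102 and 88.4, 14.4 and 13.3 and 14.5 and 15.5 CPM. The differences between the knockouts were -1.28 ± 0.05, adjusted p = 4.43e-05 for Sox11, -1.42 ± 0.10, adjusted p = 4.25e-04 for Hmga2, -1.55 ± 0.09, adjusted p = 2.40e-04 for Dlk1 and -0.80 ± 0.07, adjusted p = 0.00178 for Ccnd2. Igf2, the imprinted fetal growth factor, had 30.8 and 32.6 CPM against 47.3 and 40.3, and Cdc25a, a phosphatase that activates cell cycle kinases, had 35.7 and 31.8 CPM against 46.5 and 42.3. Called members ran from 4 (without Jmjd3 KO replicate 1, Jmjd3 KO replicate 2 or Tdt control replicate 1) to 7 with 1 library left out. Igf2 lost its call without either Jmjd3 KO library or Tdt control replicate 1 (lowest adjusted p = 0.139, highest 0.239), and Cdc25a lost it without each of the 6 libraries in turn (lowest adjusted p = 0.0516, highest 0.192).

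**Figure D2:**
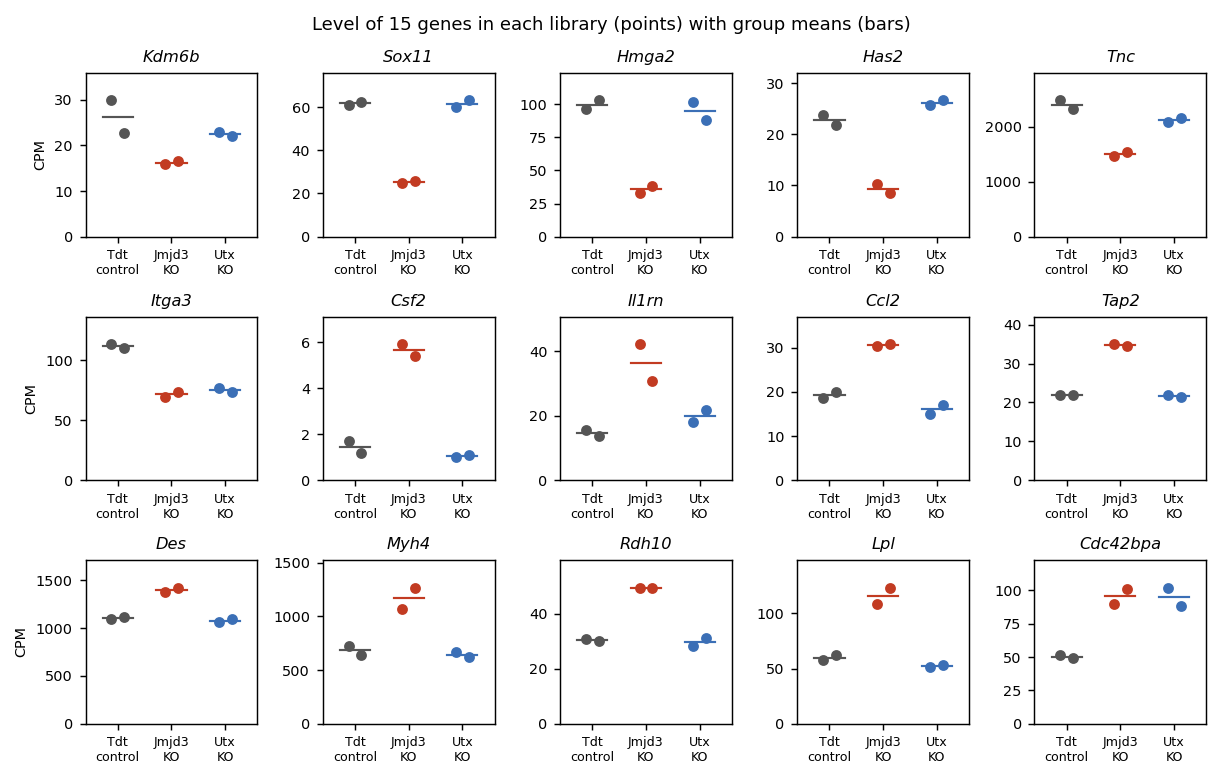
CPM in each of the 6 libraries for 15 genes, with Jmjd3 KO, Tdt control and Utx KO as separate groups; points are libraries and bars are the mean of the 2 libraries. Hmga2 lies at 32.99 and 38.4 CPM in Jmjd3 KO, below the 96.2 and 103 CPM of control and the 102 and 88.4 CPM of Utx KO, while Cdc42bpa is high and Itga3 low in both knockouts.

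G1 regulators of the cell cycle moved in both directions. Of G1 cyclins and inhibitors, 3 of 33 tested members were higher and 3 lower. Of those that fell, Ccnd2 and Cdc25a are also members of the oncofetal list and were counted there. The inhibitor Cdkn1b (p27) had 31.4 and 31.1 CPM in the Jmjd3 KO libraries and 24.6 and 24.8 in Tdt control and Cdkn2d (p19) 17.9 and 16.7 CPM against 12.3 and 11.9, and Ccng2, a cyclin of resting cells, had 11.4 and 10.5 CPM against 7.896 and 6.86. Cdk6, the partner of D-type cyclins, fell with 211 and 241 CPM against 290.0 and 282. Both inhibitors and Ccng2 were called higher in Utx KO as well, at 31.97 and 31.5 CPM for Cdkn1b, 16.4 and 17.8 for Cdkn2d and 12.8 and 13.2 for Ccng2. By edgeR, 0 of 47 (0 higher and 23 lower at an unadjusted p under 0.05, and 6 by DESeq2) DNA replication genes were called, as were 0 of 44 (0 higher and 2 lower at an unadjusted p under 0.05, and 0 by DESeq2) genes of G2 and mitosis and 0 of 76 (0 higher and 9 lower at an unadjusted p under 0.05, and 0 by DESeq2) ribosomal protein genes. Of the 47 DNA replication genes, 1 had a positive log2 fold change, and the median was -0.14. Of 49 ribosome biogenesis genes, 3 fell (median -0.14). None of the 49 was called without each of the 6 libraries in turn or with the replicate block, and 16 were called by DESeq2. Cdkn1b and Cdkn2d lost their calls without each Jmjd3 KO and each Tdt control library (lowest adjusted p = 0.0517, highest 0.124), and Ccng2 lost it without either Jmjd3 KO library or Tdt control replicate 2 (lowest adjusted p = 0.0760, highest 0.161). Cdk6 lost its call without Jmjd3 KO replicate 1, either Tdt control library or either Utx KO library (lowest adjusted p = 0.0667, highest 0.202).

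Early-response and ERK-pathway genes split. Of AP-1 and early-response factors, 6 of 36 tested members were higher and 1 lower. Of genes of ERK feedback and its targets, 2 of 25 tested members were higher and 5 lower (median -0.22). The lists share called genes: Fosl1 and Egr1 count in both, and Hmga2 of the ERK list was also counted as oncofetal. The ERK-list genes that rose were Egr1 and Etv4 (log2 fold change of Etv4 0.41 ± 0.06, adjusted p = 0.0202). Ier3, an early-response survival factor, had 90.9 and 89.7 CPM in the Jmjd3 KO libraries and 49.2 and 52.6 in Tdt control (log2 fold change 0.83 ± 0.06, adjusted p = 9.16e-04) and is robust; Jund, the AP-1 subunit of resting cells, had 219.9 and 224 CPM against 159 and 174, and Egr1 had 372 and 349 CPM against 272 and 289.6. Fosl1, the AP-1 subunit FRA1 that accumulates under sustained ERK signalling, fell with 38.8 and 37.9 CPM against 66.1 and 58.2 (log2 fold change -0.70 ± 0.07, adjusted p = 0.00340) and is robust. Hbegf, a ligand of the EGF receptor, had 51.8 and 55.2 CPM against 68.1 and 69.5, and the ephrin receptors Epha4 and Epha2 had 2.3 and 2.48 CPM against 3.97 and 4.83 for Epha4 and 171 and 170.0 CPM against 219 and 203 for Epha2. Esm1, a secreted proteoglycan of endothelium, had 15.4 and 18.2 CPM against 50.1 and 52.9, the second largest fall among called protein-coding genes averaging at least 5 CPM (log2 fold change -1.62 ± 0.16, adjusted p = 0.00340). It was at 43.6 and 62.01 CPM in Utx KO, and it is robust. Jund and Egr1 lost their calls without either Jmjd3 KO library or Tdt control replicate 1 (lowest adjusted p = 0.0508, highest 0.139), and Hbegf lost it without each Jmjd3 KO and each Tdt control library (lowest adjusted p = 0.0540, highest 0.149). Epha2 lost its call without each of the 6 libraries in turn (lowest adjusted p = 0.0504, highest 0.218), and Epha4 lost it without either Jmjd3 KO library or Tdt control replicate 2 (lowest adjusted p = 0.0839, highest 0.151).

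The matrix around the cell changed in a few members of each list. Has2, the main hyaluronan synthase of mesenchymal cells, had 10.2 and 8.46 CPM in the Jmjd3 KO libraries and 23.8 and 21.8 in Tdt control (log2 fold change -1.29 ± 0.09, adjusted p = 9.16e-04), and its single transcript had 673 and 546 estimated reads against 1810 and 1437. Tnc, tenascin C, a glycoprotein of the regenerating niche, fell from 2473 and 2320 CPM in control to 1465 and 1540 (log2 fold change -0.67 ± 0.04, adjusted p = 5.82e-04), a loss of 63.4 TPM. Itga3, the laminin-binding integrin alpha-3 subunit, had 69.4 and 73.8 CPM against 114 and 110.3 (log2 fold change -0.64 ± 0.06, adjusted p = 0.00303). All 3 are robust. Has2 and Tnc were also lower than in Utx KO, with differences of -1.49 ± 0.10, adjusted p = 3.14e-04 for Has2 and -0.50 ± 0.04, adjusted p = 0.00127 for Tnc. Itga3 was called lower in Utx KO too, at 77.1 and 73.9 CPM, and its difference between the knockouts was -0.08 ± 0.06, adjusted p = 0.473. Of the integrin and adhesion list, 1 of 34 tested members were higher and 4 lower, and the others that fell were Itga6, another laminin receptor subunit, with 25.3 and 26.1 CPM against 32.2 and 30.2, Ncam1 with 269 and 276 CPM against 343 and 349 and Cd44, the hyaluronan receptor, with 1240 and 1218 CPM against 1519 and 1458. Itgb2, the leukocyte integrin subunit, rose. Itga6 and Itgb2 lost their calls without each of the 6 libraries in turn (lowest adjusted p = 0.0561, highest 0.255), and Ncam1 lost it without Jmjd3 KO replicate 1 (adjusted p = 0.0885). Cd44 lost its call without either Jmjd3 KO library or Tdt control replicate 1 (lowest adjusted p = 0.0588, highest 0.0786).

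Of the hyaluronan and proteoglycan list, 3 of 36 tested members were higher and 2 lower: Ugdh, which makes the UDP-glucuronate that hyaluronan is built from, had 78.1 and 79.2 CPM in the Jmjd3 KO libraries and 58.98 and 56 in Tdt control, and Tnfaip6 and Itih5, which modify hyaluronan or bind it, had 21.2 and 19.7 CPM against 15.5 and 14.9 for Tnfaip6 and 33.4 and 29.6 CPM against 18.1 and 22.2 for Itih5. Of matrix proteases and inhibitors, 3 of 42 tested members were higher and 2 lower. Mmp14, a membrane-bound collagenase, had 86.2 and 90.2 CPM against 60.3 and 62.96 (log2 fold change 0.52 ± 0.06, adjusted p = 0.00456), Adamts4, an aggrecanase, had 59.7 and 68.4 CPM against 41.1 and 39.4 (log2 fold change 0.67 ± 0.07, adjusted p = 0.00470), and Adam12, a metalloprotease of fusing myoblasts, fell with 124 and 120.1 CPM against 174 and 164 (log2 fold change -0.48 ± 0.05, adjusted p = 0.00506); these 3 are robust. The basement membrane collagen Col4a2 and the proteoglycan Vcan fell with 172 and 176 CPM against 219 and 216 for Col4a2 and 199 and 214 CPM against 249.7 and 265 for Vcan. Tnfaip6 and Col4a2 lost their calls without each Jmjd3 KO and each Tdt control library (lowest adjusted p = 0.0616, highest 0.179), and Ugdh lost it without Jmjd3 KO replicate 1 (adjusted p = 0.0634). Itih5 lost its call without either Jmjd3 KO library or Tdt control replicate 1 (lowest adjusted p = 0.0718, highest 0.165), and Vcan lost it without each of the 6 libraries in turn (lowest adjusted p = 0.0553, highest 0.248).

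Some transcripts of mature muscle rose. Of the fibre markers, 3 of 12 tested members were higher and 0 lower, with 0 lower at an unadjusted p under 0.05 and 0 by DESeq2 (median 0.27). Calls ran from 1 (without Jmjd3 KO replicate 2 or Tdt control replicate 1) to 6 when 1 library was left out. Myh4, the myosin of the fastest fibres, had 1067 and 1269 CPM in the Jmjd3 KO libraries and 727 and 639.8 in Tdt control (log2 fold change 0.77 ± 0.09, adjusted p = 0.00711) and is robust, though its reads may be shared with its neighbours in the myosin cluster of chromosome 11. Atp2a1, the calcium pump of fast fibres, had 1491 and 1515 CPM against 1229 and 1266, and Ryr1, the calcium release channel, had 146 and 170.1 CPM against 102 and 109. In a list of the triad and the sarcomere scaffold, written after the values were seen, 16 of 54 tested members were higher and 0 lower, with 1 lower at an unadjusted p under 0.05 and 0 by DESeq2, and the median was 0.36. It includes Dhrs7c, an enzyme of the reticulum, with 8.23 and 7.68 CPM against 4.396 and 4.92, and Stac2, a partner of the calcium channel, with 2.56 and 2.23 CPM against 1.04 and 0.8805. The calls of that list ran from 0 (without Tdt control replicate 1) to 17 with 1 library left out, so all of them were lost without that control library. The sum of the fibre markers was higher in both Jmjd3 KO libraries, and whether fibre fragments or fibre nuclei in the sort carry these transcripts was not tested. Atp2a1 lost its call without either Jmjd3 KO library or Tdt control replicate 1 (lowest adjusted p = 0.0718, highest 0.0900), and Stac2 lost it without each Jmjd3 KO and each Tdt control library (lowest adjusted p = 0.0654, highest 0.142). Dhrs7c lost its call without Jmjd3 KO replicate 1 or Tdt control replicate 1 (lowest adjusted p = 0.0644, highest 0.103), and Ryr1 lost it without Jmjd3 KO replicate 2 or Tdt control replicate 1 (lowest adjusted p = 0.0638, highest 0.0836).

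Of the myogenic regulators, 3 of 39 tested members were higher and 1 lower. Myod1, the transcription factor of committed myoblasts, fell by 0.22 on the log2 scale, with 400.0 and 410.1 CPM in the Jmjd3 KO libraries and 469 and 473 in Tdt control (adjusted p = 0.0336), while Mef2c, a factor of differentiation, had 37.6 and 37.7 CPM against 21.6 and 25.1. Of the quiescence and Notch list, 4 of 35 tested members were higher and 0 lower, with 3 lower at an unadjusted p under 0.05 and 1 by DESeq2: Cdkn1b, Fgfr4, Cebpb and Tob1. Fgfr4, a growth factor receptor of myoblasts, had 128 and 124 CPM against 87.9 and 89.3, and Tob1, an antiproliferative factor, had 22.7 and 23.5 CPM against 17.2 and 16.4. Mef2c, Cdkn1b, Fgfr4 and Tob1 lost their calls without each Jmjd3 KO and each Tdt control library (lowest adjusted p = 0.0518, highest 0.205), and Myod1 lost it without each of the 6 libraries in turn (lowest adjusted p = 0.0539, highest 0.209). Cebpb lost its call without Jmjd3 KO replicate 1, Tdt control replicate 1 or Utx KO replicate 2 (lowest adjusted p = 0.0520, highest 0.165).

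Some retinoid genes rose. In a list written after the values were seen, 5 of 25 tested members were higher and 0 lower, with 1 lower at an unadjusted p under 0.05 and 0 by DESeq2, and the median was 0.19. Rdh10, which oxidises retinol to retinaldehyde, had 49.4 and 49.1 CPM in the Jmjd3 KO libraries and 30.8 and 30.1 in Tdt control (log2 fold change 0.69 ± 0.05, adjusted p = 0.00139) and is a robust call; in Utx KO it was at 28.4 and 31.02 CPM. Rdh12, another retinol dehydrogenase, had 3.31 and 2.99 CPM against 1.34 and 1.27. The receptors Rarg and Rara had 31.1 and 31.02 CPM against 23.4 and 22.2 for Rarg and 39.04 and 39.5 CPM against 33.5 and 30.7 for Rara. The Jmjd3 KO pair lay above the control pair in each, a separation that all 513 called genes had. Fewer members of the list were called whichever library was left out. Of genes of lipid uptake and efflux, 3 of 38 tested members were higher and 0 lower, with 4 lower at an unadjusted p under 0.05 and 2 by DESeq2. Lpl, lipoprotein lipase, had 109 and 123 CPM against 57.9 and 62 (log2 fold change 0.95 ± 0.08, adjusted p = 0.00139), and Abca1, the exporter of cholesterol, had 20.3 and 21.1 CPM against 14.4 and 13.8 (log2 fold change 0.56 ± 0.06, adjusted p = 0.00456); both are robust, and the third is the fat lipase Pnpla2. The difference of Lpl from Utx KO was 1.16 ± 0.08, adjusted p = 3.46e-04. Pnpla2 lost its call without each Jmjd3 KO and each Tdt control library (lowest adjusted p = 0.123, highest 0.258), and Rara lost it without each of the 6 libraries in turn (lowest adjusted p = 0.0512, highest 0.230). Rarg lost its call without either Jmjd3 KO library or Tdt control replicate 2 (lowest adjusted p = 0.0518, highest 0.0904), and Rdh12 lost it without Jmjd3 KO replicate 1 or Tdt control replicate 1 (lowest adjusted p = 0.0553, highest 0.0828).

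Metabolic and stress genes changed one by one. Ddit4, an inhibitor of mTORC1, had 62.2 and 61.2 CPM in the Jmjd3 KO libraries and 35.2 and 40.7 in Tdt control (log2 fold change 0.70 ± 0.07, adjusted p = 0.00445), and Slc16a3, the lactate exporter, had 37.1 and 33.5 CPM against 21.4 and 22.01 (log2 fold change 0.70 ± 0.07, adjusted p = 0.00445); both are robust. Ddit4 was also higher in Utx KO, at 57.03 and 60.6 CPM, and its difference between the knockouts was 0.07 ± 0.07, adjusted p = 0.611. Hmox1, heme oxygenase, had 42.1 and 39.97 CPM against 28.2 and 22.8, and the stress hormone Gdf15 had 2.96 and 4.06 CPM against 1.5 and 1.37. Phgdh and Asns, which make serine and asparagine, fell, with 208 and 209 CPM against 301 and 273 for Phgdh and 66.3 and 63.5 CPM against 83.1 and 81.6 for Asns. By edgeR, 0 of 52 (0 higher and 1 lower at an unadjusted p under 0.05, and 0 by DESeq2) respiratory chain subunits were called. Hmox1, Gdf15, Phgdh and Asns lost their calls without each Jmjd3 KO and each Tdt control library (lowest adjusted p = 0.0603, highest 0.205).

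Several replication-dependent histone genes, whose copies are near identical and whose transcripts mostly lack a poly(A) tail, fell. Of this list, 2 of 58 tested members were higher and 11 lower (median -0.17). Hist4h4 had 147 and 109 CPM in the Jmjd3 KO libraries and 347 and 329 in Tdt control, a 2.64-fold decrease (log2 fold change -1.40 ± 0.12, adjusted p = 0.00235) and a robust call, and Hist3h2ba rose with 3.18 and 3.61 CPM against 0.803 and 0.653 (log2 fold change 2.21 ± 0.22, adjusted p = 0.00350), also robust. The others that fell did so by 1.15-fold to 1.26-fold; Hist2h2bb, which lost the most TPM among the called protein-coding genes, had 329 and 349.5 CPM against 428 and 404. Hist1h2bj had 317 and 327 CPM against 396 and 389.5 and was lower in Utx KO as well, at 281 and 293 CPM. Called histones ran from 2 (without Jmjd3 KO replicate 1 or Jmjd3 KO replicate 2) to 12 with 1 library left out. Small nuclear and nucleolar RNAs moved the same way as the histones: all called snoRNA genes, 9 of 173 tested, fell, with a median log2 fold change of -0.30 over the 173, and all called snRNA genes, 5 of 50, fell, with a median of -0.25. Hist2h2bb and Hist1h2bj lost their calls without each Jmjd3 KO and each Tdt control library (lowest adjusted p = 0.0797, highest 0.220).

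Of 729 tested processed pseudogenes, 21 rose and 2 fell, so 3.16% were called, near the 3.0% of all tested genes. The folds were larger, with a median fold size of 69.79 among called processed pseudogenes against 1.388 among called protein-coding genes. Most of these called pseudogenes, Eif5al3-ps and Gm9347 included, are among the robust calls. The reads of a processed pseudogene and its parent gene can be exchanged by the quantification. Eif5al3-ps, for example, had 14.2 and 13.7 CPM in the Jmjd3 KO libraries and 0.171 and 0.228 in Tdt control, and Gm9347 had 8.91 and 8.69 CPM against 0.0658 and 0.0455. Both Jmjd3 KO libraries carried the reads, and no other library held more than 0.228 CPM of either. With pseudogenes left out of the test, 560 genes were called (354 higher and 206 lower).

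Outside the lists, 359 of the 513 calls belong to no group. Among called protein-coding genes averaging at least 5 CPM, the largest fall was that of Vat1l, a vesicle amine transport protein homolog, with 14.7 and 12.4 CPM in the Jmjd3 KO libraries and 43.7 and 44.5 in Tdt control (log2 fold change -1.71 ± 0.10, adjusted p = 3.31e-04). Arl4d, a small GTPase of the plasma membrane on chromosome 11, had 10.2 and 10.6 CPM against 24.5 and 28.6. Gfra2, the co-receptor for neurturin, and St8sia2, which adds polysialic acid to the NCAM1 protein, had 22.6 and 23.9 CPM against 43.1 and 42.5 for Gfra2 and 13.7 and 11.6 CPM against 25.5 and 25.6 for St8sia2. Capn6, a calpain without protease activity that binds microtubules, had 31.9 and 31.2 CPM against 51.9 and 53.8 (log2 fold change -0.75 ± 0.05, adjusted p = 6.65e-04). Hebp1, a heme-binding protein, and the calcium channel subunit Cacna1d had 4.46 and 2.601 CPM against 7.95 and 8.61 for Hebp1 and 3.21 and 3.76 CPM against 7.29 and 7.13 for Cacna1d. The long non-coding RNA Wincr1 had 4.33 and 4.03 CPM against 8.86 and 8.699. In each the Jmjd3 KO pair was below the control pair, and all 513 called genes were separated in this way or the reverse. Adcyap1r1, the receptor for the neuropeptide PACAP, fell with 17.9 and 20.6 CPM against 33.2 and 31.1, and it was called lower in Utx KO too, at 17.1 and 20.4 CPM. Adcyap1r1 lost its call without Jmjd3 KO replicate 1 or Tdt control replicate 1 (lowest adjusted p = 0.0681, highest 0.103), and Hebp1 lost it without either Tdt control library (lowest adjusted p = 0.0882, highest 0.0984).

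Among those that rose, Borcs8, a subunit of the complex that positions lysosomes, had 10.2 and 10.99 CPM in the Jmjd3 KO libraries and 4.33 and 4.19 in Tdt control (log2 fold change 1.31 ± 0.09, adjusted p = 6.73e-04). Cdc42bpa, a kinase downstream of CDC42, had 89.8 and 101 CPM against 51.2 and 49.1 (log2 fold change 0.93 ± 0.09, adjusted p = 0.00327). It was called higher in Utx KO too, at 102 and 88.6 CPM, and the difference between the knockouts was 0.00 ± 0.09, adjusted p = 0.989. Ide, the insulin-degrading enzyme, had 253 and 248 CPM against 166 and 146 (log2 fold change 0.68 ± 0.07, adjusted p = 0.00445), and Tgm1, a transglutaminase, had 5.16 and 4.68 CPM against 1.37 and 1.75 (log2 fold change 1.66 ± 0.16, adjusted p = 0.00340). Pik3ap1 and Clec4n, both of myeloid cells, had 18.6 and 14.6 CPM against 10.3 and 8.805 for Pik3ap1 and 11.03 and 8.53 CPM against 5.26 and 6.01 for Clec4n. Borcs8, Cdc42bpa, Ide and Tgm1 are robust calls. Pik3ap1 and Clec4n lost their calls without Jmjd3 KO replicate 1 or either Tdt control library (lowest adjusted p = 0.0623, highest 0.149).

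**Figure D3:**
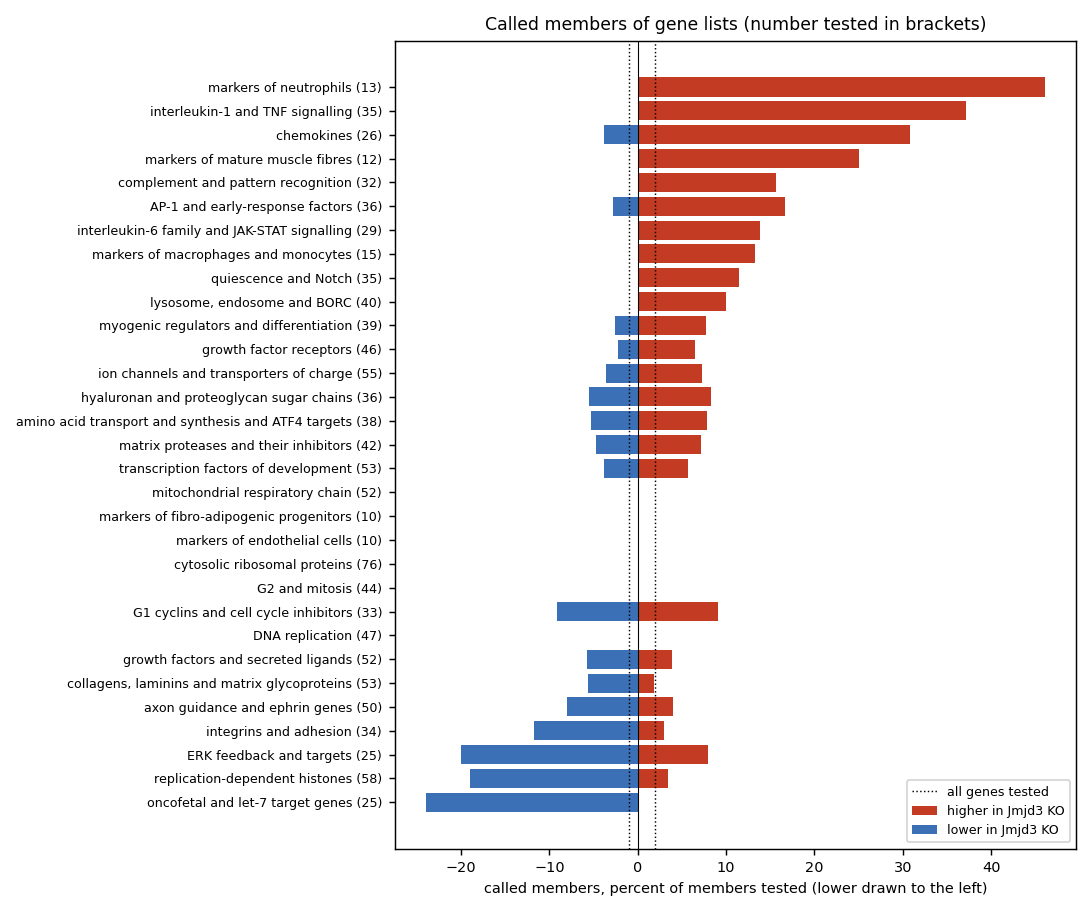
Percent of the tested members called higher (right) and lower (left) in Jmjd3 KO against Tdt control, for a selection of the gene lists. Drawn are the lists with several called members and a few others picked by name. Other lists with fewer calls, such as interferon response (2 of 39 tested members higher), are left out. The lists were chosen with earlier results of these data known. Dotted lines mark all tested genes, 1.97% higher and 1.03% lower. The inflammatory and muscle lists extend to the right, and the oncofetal and histone lists to the left.

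Called genes were unevenly placed in the genome. On chromosome 11, which carries Kdm6b, 104 of 1284 tested genes were called (8.10%), against 409 of 15800 elsewhere (2.59%). By distance from Kdm6b, 5 of 79 genes within 1 Mb were called, 13 of 82 at 1 to 5 Mb (15.9%), 13 of 170 at 5 to 10 Mb (7.65%), 34 of 239 at 10 to 20 Mb (14.2%), 26 of 360 at 20 to 40 Mb (7.22%) and 12 of 353 at 40 to 80 Mb (3.40%). Of the 86 robust calls, 22 lie on this chromosome. The nearest called genes were mixed in direction, and within 1 Mb 4 fell and 1 rose. Chd3, a chromatin remodeller (chromosome 11, 69343273 to 69369406), fell with 7.04 and 7.57 CPM in the Jmjd3 KO libraries and 10.3 and 11.1 in Tdt control. Borcs6, a second subunit of the lysosome complex, rose with 12.03 and 11.8 CPM against 9.09 and 8.699. In Utx KO Borcs6 was at 11.3 and 11.1 CPM, and its difference between the knockouts was 0.09 (edgeR adjusted p = 0.459). Further out, Scpep1, a serine carboxypeptidase, had 52.5 and 50.6 CPM against 27.6 and 28.6 (log2 fold change 0.88 ± 0.06, adjusted p = 5.82e-04), Acbd4, an acyl-CoA-binding protein, had 10.5 and 9.77 CPM against 4.36 and 4.68 and B9d1, a protein of the ciliary transition zone, had 11.9 and 10.8 CPM against 5.501 and 5.84; these 3 rose and are robust. AA465934, a non-coding gene on this chromosome, rose with 15.1 and 12.6 CPM against 1.43 and 1.46 (log2 fold change 3.26 ± 0.14, adjusted p = 6.67e-05). The rise sat on AA465934-203, with 929.6 and 725.3 estimated reads against 0 and 0. AA465934-201 had 1.56 and 0 against 65.89 and 43.1. Such a transcript at 0 throughout a group can also come from a failed estimate. With the chromosome left out of the test, 342 genes were called, 237 higher and 105 lower. Away from chromosome 11 lay 12 of the 13 called interleukin-1 and TNF genes, as did 33 of the 35 tested. Of the chemokines, 5 of the 9 called and 15 of the 26 tested lay elsewhere. All 13 tested neutrophil markers and all 25 tested oncofetal genes lie off this chromosome. The place of their called members was thus fixed in advance. The labels give C57BL/6 for all groups, and sequence differences between the libraries were not tested. Chd3 and Borcs6 lost their calls without each Jmjd3 KO and each Tdt control library (lowest adjusted p = 0.0772, highest 0.196).

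**Figure D4:**
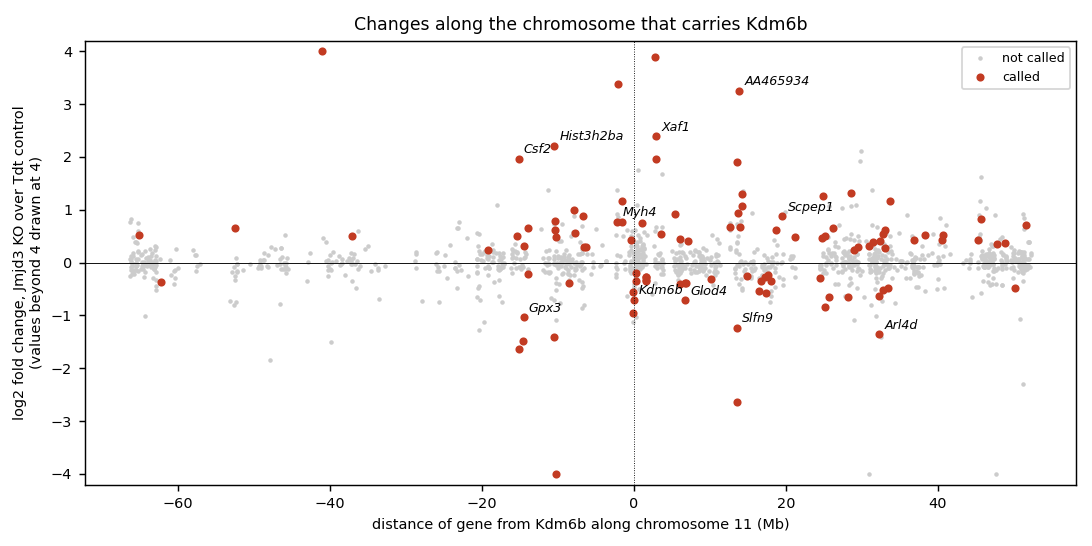
Log2 fold change of each tested gene of chromosome 11 against its distance from Kdm6b in megabases; grey points were not called, and coloured points were, with changes beyond 4 drawn at 4. Calls in both directions occur on both sides of Kdm6b and thin out beyond 40 Mb.

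Transcript usage, the share of a gene's reads held by each transcript, was tested for 7232 genes with at least 2 transcripts holding 10% or more of the gene. edgeR's test of transcript usage called 44 genes (0.608%), 10 of them on chromosome 11, where 572 genes were tested, and 4 of them also called for level. In 38 of the 44 a transcript that held at least 10% in one group was listed at 0 in both libraries of the other, a pattern that a failed estimate can also give. Cul9, a ubiquitin ligase scaffold, is one: Cul9-201 held 56.5% and 49.3% in Jmjd3 KO and was listed at 0 in both control and both Utx KO libraries, while Cul9-204 held 52.2% and 49.8% in control and was listed at 0 in Jmjd3 KO. The level of the gene missed the threshold (adjusted p = 0.331). None of the 44 was called under all 11 alternative settings, and 289 genes had an unadjusted p under 0.05.

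When only transcripts above 0 in all 6 libraries were kept, a setting added after the data were seen, 4 of 6054 genes were called, among them C030037D09Rik and Myh1. Myh1, a fast fibre myosin in the cluster of near copies, had 9.87% and 3.47% on Myh1-202 against 50.6% and 35.2%, and 53.4% and 62.2% on Myh1-203 against 26.0% and 35.1%. Sec16a, a scaffold of endoplasmic reticulum exit sites, was called with all transcripts kept and has no zeros: Sec16a-202 held 42.0% and 46.9% in Jmjd3 KO and 20.5% and 20.2% in control.

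**Figure D5:**
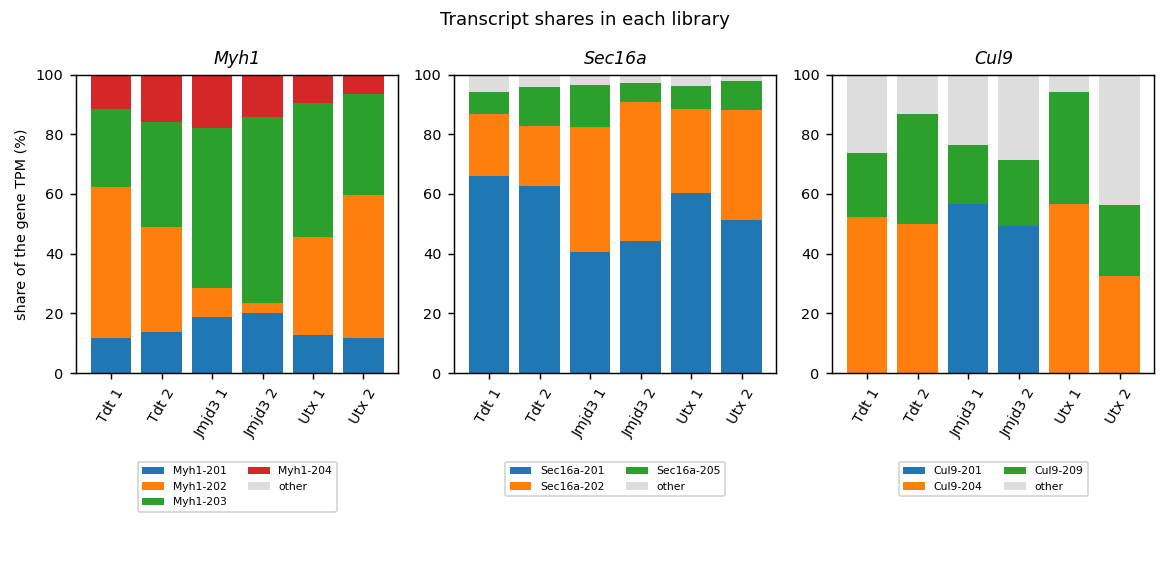
Share of each gene's TPM held by its main transcripts in the 6 libraries for Myh1, Sec16a and Cul9, each bar one library, each colour one transcript and grey the rest. Cul9-201 appears in the Jmjd3 KO libraries alone, whereas the coloured transcripts of Myh1 and Sec16a are above 0 in all 6 libraries.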

How the data were processed

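Satellite cell RNA-seq libraries (2 each of Jmjd3 KO, Tdt control and Utx KO) were analysed from the authors' deposited transcript tables, which hold estimated counts and TPM values per the file headers. Salmon 1.1.0, cutadapt 2.6, DESeq2 1.28.1 and the builds mm10 and GRCm38 are named in the submitters' processing notes; the authors' deposited comparison table holds log2 fold changes, p-values and a mean signal (normalized count) per gene. Of 140748 transcripts, 139864 matched the annotation (416 of them only without version), holding at least 99.825% of the reads. Estimated counts were summed by gene and rounded. edgeR 4.0.16 (R 4.3.3) was run with TMM scaling, its default filter on low counts and a quasi-likelihood test over all 6 libraries with a genotype term, leaving 3 residual degrees of freedom; the common coefficient of variation was 0.0844. Transcript usage was tested with edgeR's Simes method on transcripts holding at least 10% of a gene. Libraries held 53750675 to 77675388 reads, and errors rest on 2 libraries per group; other depths were not tried. On simulated data the gene test recovered most changed genes, with more false calls than the nominal rate.

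Genes were named by level (10 gained and 10 lost in TPM), by fold (20 in each direction with a mean of at least 5 CPM), by list (up to 4 called members), by transcript share (12) and by nearness to Kdm6b (5 on each side); a few others were chosen after their values were seen. Members and lists were chosen with earlier results of these data known. Alternatives were size factors, filters, transcript length offsets (with limma 3.58.1 for usage), the 4 libraries alone, a replicate block, protein-coding genes, DESeq2 1.42.0 and leaving out each library. Numbers did not pair the libraries: deviations of same-numbered libraries correlated at -0.0107 for Jmjd3 KO and Tdt control, across genes. Some results for single genes are not reported here.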

Additional observations from a re-analysis of the deposited data

How the results depend on the processing

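The 513 called genes became 1872 with no filter on low counts (31164 genes tested), 331 with transcript length offsets, 322 with the replicate block and 1084 with DESeq2; other scaling, a stricter filter, the 4 libraries alone and protein-coding genes alone gave 481 to 630. With 1 library left out the count ran from 113 to 434, and of the 513 genes 86 were called in each of these 6 fits. Genes that rose made up 59.3% to 69.6% of the calls in every fit run. The 44 genes called for transcript usage became 20 with limma (5 of them among the 44), 111 with the 4 libraries alone (39), 20 with the replicate block (19) and 4 with only transcripts above 0 in all 6 libraries (3), and ran from 44 to 73 with 1 library left out (11 to 34 shared). Same-numbered libraries do not share more than their number (correlations of deviations from -0.0532 to -0.00813), so the block is no pairing. The log2 fold change of Kdm6b ran from -0.87 to -0.49 with 1 library left out and lost its call without either Jmjd3 KO library. Kdm6a, not called, changed sign with transcript length offsets (0.11, adjusted p = 0.861). With CPM in place of TPM, 10 of the 20 genes with the largest change in level were shared. The cause of these changes was not tested. Fits that leave a group with 1 library assume that it varies like the other groups. The direct contrast with Utx KO was run under no alternative.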
